A study of Mus musculus with 6 samples.

Results

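The genes described here build and run the cilium: the subunits of the intraflagellar transport (IFT) particles, of the BBSome and of the gate at the base of the cilium, with the dynein and the small GTPases that serve them. They were chosen by gene name, as any gene whose symbol begins with Ift, Bbs, Tctn or B9d followed by its number or letters, plus a list of subunits that carry other symbols. This gave 44 of the 29626 genes in the count table. Of these, 37 passed the filter on low counts and were tested among 15353 genes, and the other 7 are given as counts.

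RNA was measured by poly(A)-selected bulk RNA sequencing in double-positive (DP) thymocytes, the CD4+CD8+ stage of T cell development in the thymus, sorted by flow cytometry from mice of 8 weeks kept free of specific pathogens and not stimulated after isolation. There were 3 libraries from Kansl1 fl/fl CD4-Cre mice (KANSL1-deficient) and 3 from littermate Kansl1 fl/fl mice without Cre (control), whose genotype the labels also give as WT. Cre under Cd4 control acts in developing T cells, and since only the KANSL1-deficient mice carry it, effects of Cre and of the Kansl1 deletion cannot be told apart. Kansl1 encodes a subunit of the NSL complex, in which the histone acetyltransferase KAT8 works, and the loxP-flanked allele is present in all 6 animals. The libraries held 20603137 to 22459830 counts in KANSL1-deficient cells and 19361968 to 21975201 in control cells. Kansl1 itself had 146, 168 and 188 CPM (counts relative to library size, scaled by the TMM factors of edgeR) in KANSL1-deficient libraries, against 214, 189 and 230 CPM in control libraries. All 3 KANSL1-deficient values lay below the control values, and the difference had a log2 fold change of −0.33 ± 0.14 (SE) and did not pass the test (edgeR quasi-likelihood test, adjusted p = 0.171), in counts summed over the whole gene, which do not separate a deleted exon from the rest.

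IFT particles are protein trains that kinesin-2 carries towards the tip of the cilium and cytoplasmic dynein 2 carries back. The IFT-B complex is tied to outward movement and to the import of tubulin, the IFT-A complex to return and to the entry of membrane receptors, and the BBSome is an adaptor that moves membrane proteins out of the cilium. Lymphocytes are generally described as having no primary cilium, but IFT20, a small IFT-B subunit that also sits at the Golgi, serves in T cells in the recycling of the T cell receptor to the immunological synapse. Many ciliary genes carry an X-box, the site bound by RFX transcription factors, in their promoters, and the NSL complex has been reported to bind promoters of intraciliary transport genes in other mouse cells.

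The X-box was matched more often in the promoters of these genes than in those of all tested genes, and their choice did not use it. It is an inverted repeat of short half-sites, here allowed 1 to 3 bases apart and searched for on both strands in the 300 bases of each RefSeq promoter (GRCm38.p6, 250 bases before to 50 after the start of the transcript). Promoters were found for 39 of the 44 genes, 41 in all. An X-box was matched in 26 of these 41 (63.4%), against 33.6% of the 12492 promoters of tested genes and 34.7% of all 32851 promoters. The stricter half-site GTTGCC, which overlaps the X-box match, was found in 20 of 41 (48.8%), against 12.8% of promoters of tested genes and 12.5% of all promoters. These are shares of matched letters, not of bound sites. The promoters of B9d1 and B9d1os overlap and each counts in both shares, and B9d2 counts with 2 promoters. Genes under the filter are included in the 41. The 9 matches below, in 8 genes, were picked because they read as an X-box on both strands. Each also had to hold GTTGCC or its reverse complement GGCAAC, so their symmetry and shared letters come from that choice. They are shown as examples of the match in IFT, BBSome and transition zone genes; capitals mark the X-box match, with up to 5 flanking bases on each side, and Ift57 has 2 of them.
B9d2: ctgctGTTGCCCCAGCAACagtcg
Tctn1: tgactGTTGCCCGGGCAAC
Tctn3: cagcgGTTGCCAGGTAACgggaa
Mks1: tctccGTTGCCAGGGGAACgaggc
Bbs1: agctgGTTGCCAAGGCGACgcctg
Bbs7: ccccgGTTGCCTTGGAAACcggcc
Ttc26: gcggcGTTGCCGTGGAAACggagc
Ift57, first: gtctgGTTGCCGTGGTGACcggct
Ift57, second: ctgcgGTTGCCTGGTAACggtgg

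The B9d2 site lies on the plus strand at chr7:25680791-25680814, and the match runs from 16 to 29 bases after the start of the transcript. The Ift57 sites lie on the plus strand at chr16:49699202-49699225 and chr16:49699229-49699251, both before the start. The Mks1 site lies on the plus strand at chr11:87853186-87853209 and the Ttc26 site on the plus strand at chr6:38381486-38381509. On the minus strand lie those of Bbs1 at chr19:4906608-4906631, Bbs7 at chr3:36613492-36613515, Tctn1 at chr5:122264411-122264429 and Tctn3 at chr19:40612354-40612376. Among the genes with these sites, Ift57, Ttc26 and B9d2 had positive log2 fold changes (KANSL1-deficient over control) and Bbs1, Bbs7, Mks1, Tctn1 and Tctn3 negative ones.

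The whole promoters of 3 genes are shown because the tests below turn on them: Ttc21b and Bbs4, which DESeq2 called lower, and B9d2, which it called higher. Capitals again mark X-box matches.
Ttc21b (chr2:66256568-66256867, minus strand): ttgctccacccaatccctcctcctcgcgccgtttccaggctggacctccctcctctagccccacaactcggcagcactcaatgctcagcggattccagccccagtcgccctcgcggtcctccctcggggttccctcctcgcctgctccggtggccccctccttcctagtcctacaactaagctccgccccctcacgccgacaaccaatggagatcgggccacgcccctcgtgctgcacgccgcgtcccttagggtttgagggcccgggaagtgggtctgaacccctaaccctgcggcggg
Bbs4 (chr9:59353459-59353758, minus strand): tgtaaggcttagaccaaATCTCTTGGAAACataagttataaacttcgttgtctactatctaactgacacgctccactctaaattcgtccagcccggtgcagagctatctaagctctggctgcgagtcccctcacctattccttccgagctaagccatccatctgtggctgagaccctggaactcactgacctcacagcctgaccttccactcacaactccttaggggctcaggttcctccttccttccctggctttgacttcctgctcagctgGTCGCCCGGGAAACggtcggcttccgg
B9d2 (chr7:25680530-25680829, plus strand): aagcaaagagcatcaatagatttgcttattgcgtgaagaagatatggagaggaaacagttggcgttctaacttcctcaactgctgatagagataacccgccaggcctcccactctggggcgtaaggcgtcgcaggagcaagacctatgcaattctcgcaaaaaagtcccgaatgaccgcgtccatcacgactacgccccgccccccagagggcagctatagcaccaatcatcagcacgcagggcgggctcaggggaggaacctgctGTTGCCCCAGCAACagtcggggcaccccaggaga

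No X-box match was found in the Ttc21b window, while the Bbs4 window held matches far before and just after the start, and B9d2 has a second RefSeq promoter with another match. Among tested genes with a promoter, the 20 that held an X-box match had a median log2 fold change of −0.60, 17 of them negative. The 13 without a match had a median of −0.43, 8 of them negative. Over all tested genes, the 3743 with a match had a median of −0.03 (52.5% negative). The 6100 without one had a median of −0.02 (51.6% negative). This split was made after the values were known and is a description.

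Other motifs were looked for on both strands too. The core of the NRF1 site, GCGCA and GCGC 1 base apart, was found in 19.5% of the 41 promoters, against 9.97% of promoters of tested genes. The overlapping promoters of B9d1 and B9d1os both count in this share. The ETS core CCGGAAG was found in 14.6%, against 18.0%, and the TATA box core TATAAA in 2.44%, against 7.17%. The median GC content of the 41 promoters was 60.0%, against 60.3% for promoters of tested genes.

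The cilium genes were mostly of low abundance in DP thymocytes. On the deposited FPKM scale, which corrects for gene length, the tested ones had a median of 1.33 FPKM, against 4.03 over all tested genes, and 21 of the 44 reached a mean of 1 FPKM over the 6 libraries. Ift20 was highest, at 56.1 ± 1.64 FPKM in KANSL1-deficient cells and 60.5 ± 5.67 in control cells (SD, n = 3 each), and held 33.3% of the summed FPKM of the 44 genes. FPKM carry no TMM factor, and on log2(FPKM + 0.1) the median difference of all tested genes was −0.15, so the tests below use counts. B9d2, a B9-domain protein of the transition zone, came next with 45.8 ± 3.18 and 35.4 ± 8.90 FPKM. Bbs9, a BBSome subunit, had 8.15 ± 0.997 and 8.80 ± 1.18 FPKM. Bbs9 was followed by Ift52, Ift80, Ift27 and Bbs4, with means over all libraries of 7.73, 7.62, 6.69 and 5.63 FPKM, steps smaller than the spread between libraries. The order of levels thus had Ift20 and B9d2 well above the rest, and the 3 highest genes held 61.4% of the summed FPKM. In bulk RNA, fewer cells with a transcript and less of it per cell cannot be told apart.

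**Figure D1:**
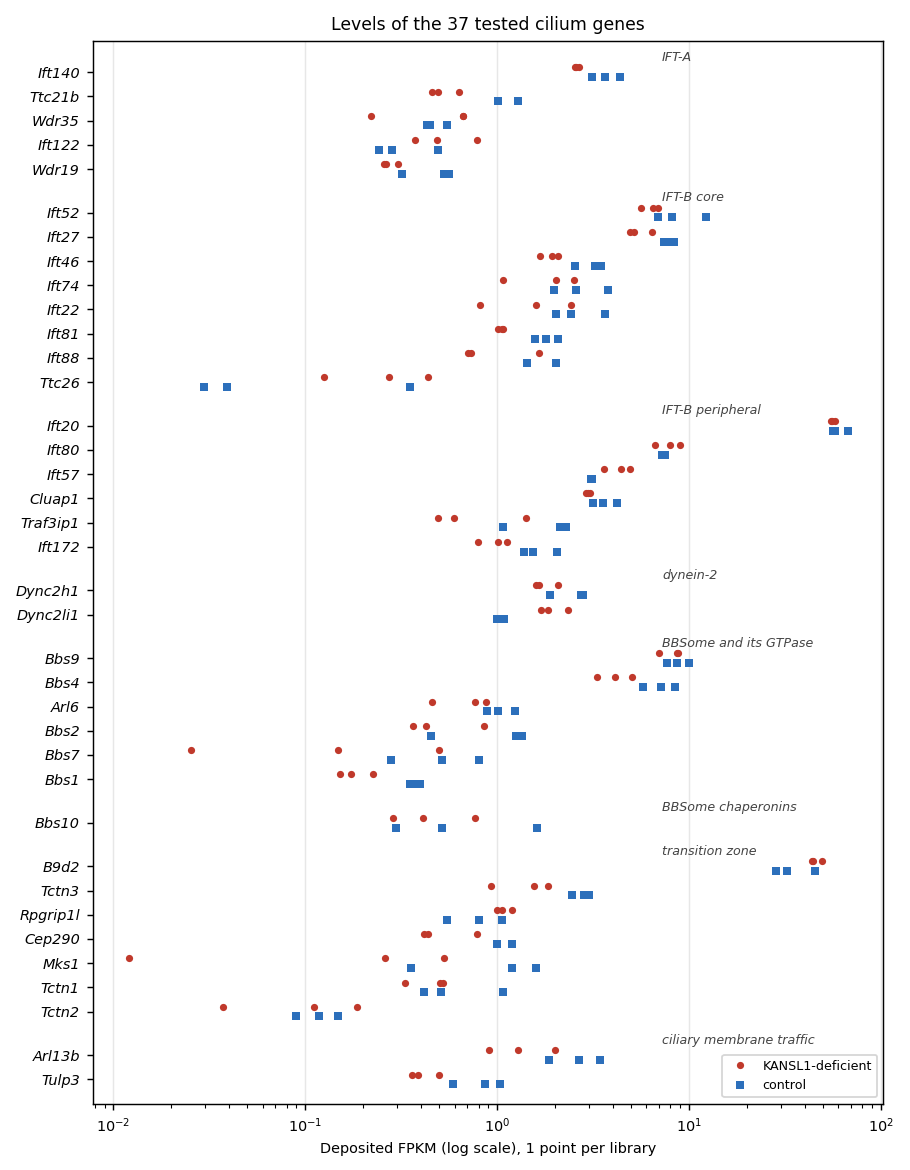
Deposited FPKM of the 37 tested cilium genes on a log axis, 1 point per library, genes grouped by role, KANSL1-deficient libraries above control libraries. Ift20 and B9d2 stand highest, at 58.3 and 40.6 FPKM over the 6 libraries.

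None of the 37 tested genes passed the main test in either direction (quasi-likelihood test of edgeR, p-values adjusted over 15353 genes). Of all tested genes, 2.91% were called lower and 3.85% higher. At an unadjusted p under 0.05, 8 of the 37 were lower (21.6%, against 11.0% of all tested genes) and 4 were higher (10.8%, against 11.7%). Their median log2 fold change was −0.44, against −0.02 over all tested genes, and 26 of 37 had a negative value (70.3%, against 51.8%). The groups did not overlap, with KANSL1-deficient libraries lower, for 11 genes (29.7%, against 14.0% of all tested genes), and with KANSL1-deficient libraries higher for 4 (10.8%, against 14.6%). DESeq2 called Ttc21b and Bbs4 lower and B9d2 higher, of 35 genes with an adjusted p, where it called 7.50% of all genes lower and 8.60% higher. In the authors' deposited table, 2 of the 37 had an adjusted p under 0.05 and a fold below 1, again Ttc21b and Bbs4, against 6.99% of all genes, and 0 had a fold above 1, against 7.92%. The authors marked Ttc21b as changed but did not mark Bbs4.

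These counts describe genes of low abundance, and in these libraries the fold change moved with abundance. Across 10 equally large groups of tested genes, ordered by CPM, the median log2 fold change was −0.12 in group 1, the lowest in CPM, and 0.20 in group 10, the highest. Of the 37 cilium genes, 26 lay in groups 2 to 5, where the median of all genes was between −0.20 and −0.11. The median of the cilium genes was −0.74, −0.48 and −0.65 in groups 3, 4 and 5, below that of all genes there. It was 0.62 in group 2, which holds only 2 of them, Ttc26 and Tctn2. With each library's trend on abundance removed, their median was −0.31, and none passed the test. The part of this trend in the remaining difference was not tested.

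**Figure D2:**
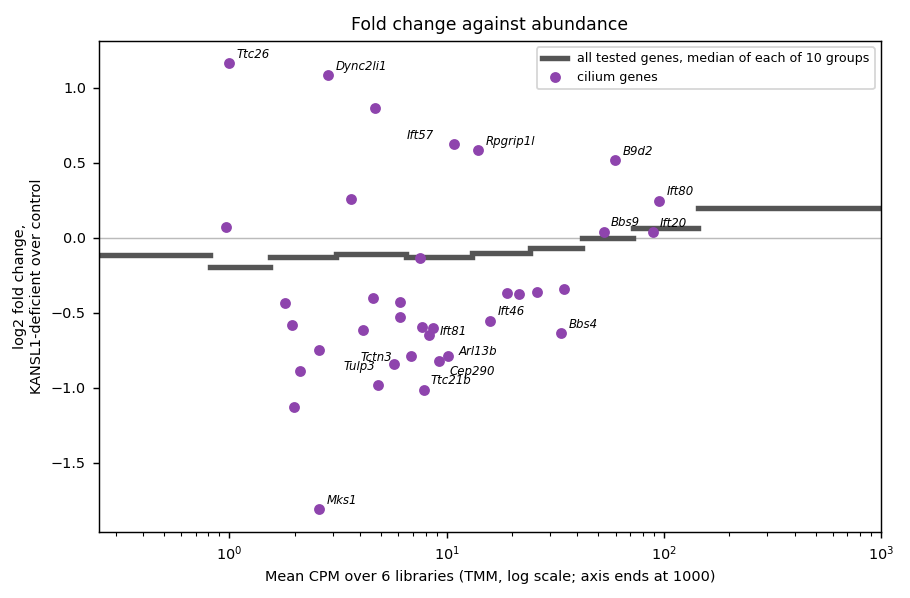
Log2 fold change (KANSL1-deficient over control) against mean CPM on a log axis for the 37 tested cilium genes, with the median of all tested genes in each of 10 groups by abundance. The all-gene median runs between −0.20 and 0.20, and most cilium genes in groups 3 to 5 lie below it.

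**Figure D3:**
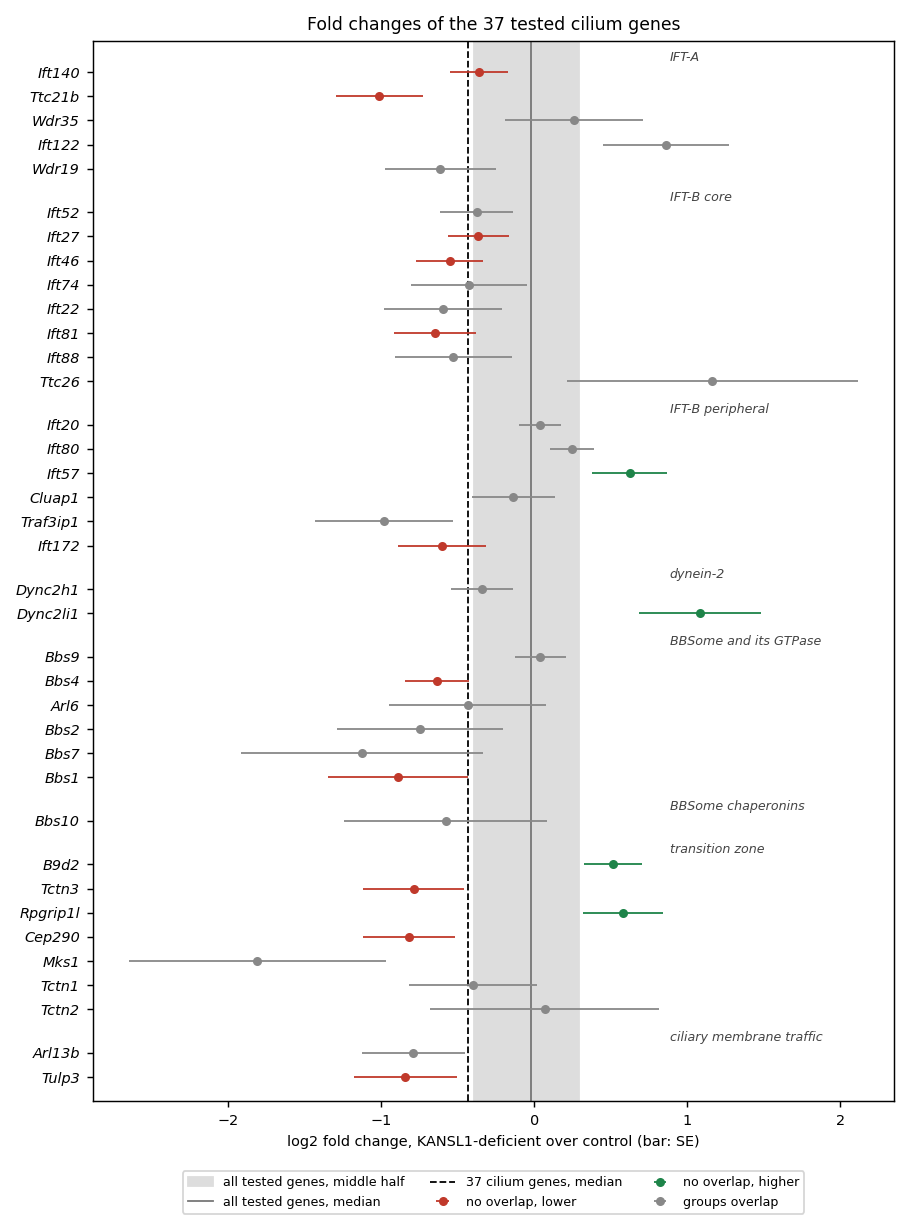
Log2 fold change with its standard error (edgeR) for the 37 tested genes, grouped by role; positive values are higher in KANSL1-deficient cells. Ttc21b at −1.01 ± 0.28 has the smallest adjusted p, 0.0527, and the IFT-B core and BBSome groups hold mostly negative values.

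Of the IFT-A genes, 5 of 6 were tested, 3 with negative and 2 with positive values (median −0.36). Ttc21b encodes IFT139, a peripheral IFT-A subunit, and lies on chromosome 2 at 66014671 to 66086961 (GRCm39). It had 4.92, 6.22 and 4.41 CPM in KANSL1-deficient libraries, against 11.1, 9.02 and 11.3 CPM in control libraries. The groups did not overlap, with 5.18 ± 0.936 CPM on average in KANSL1-deficient and 10.5 ± 1.25 CPM in control cells (SD, n = 3 each). Its log2 fold change of −1.01 ± 0.28 (SE) came with an adjusted p of 0.0527 by edgeR and 0.0126 by DESeq2. The authors' deposited table gives a fold of 0.495 with an adjusted p of 0.0135 and marks it as changed. Ift140, a core subunit, had 23.8, 22.6 and 22.2 CPM in KANSL1-deficient libraries, against 34.1, 29.4 and 24.8 CPM in control libraries, also without overlap (log2 fold change −0.36 ± 0.19, adjusted p = 0.283). Ift122, another core subunit, had the highest value of the group, 0.86 ± 0.41, on 8.76, 5.33 and 3.95 CPM in KANSL1-deficient libraries and 4.74, 2.42 and 2.77 CPM in control libraries, which overlapped. Wdr19 (IFT144), also a core subunit, and Wdr35 (IFT121) stood at −0.61 and 0.26 on the log2 scale, with overlapping groups. None of the 5 passed the test.

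The IFT-B core, the part of the train that holds the tubulin-binding pair IFT74 and IFT81, had negative values for 7 of 8 genes (median −0.48), none past the test. Ift81 had 6.74, 6.27 and 6.36 CPM in KANSL1-deficient libraries, against 9.87, 11.8 and 8.71 CPM in control libraries (log2 fold change −0.65 ± 0.27, adjusted p = 0.172). Ift46 had 13.4, 11.4 and 13.8 CPM in KANSL1-deficient libraries, against 21.0, 15.9 and 19.6 CPM in control libraries (−0.55 ± 0.22, adjusted p = 0.156). Neither overlapped, nor did Ift27, a small GTPase that links the particle to BBSome export, at 16.6 ± 2.09 CPM in KANSL1-deficient and 21.4 ± 1.57 CPM in control libraries. The values of Ift22, Ift52, Ift74 and Ift88 lay between −0.60 and −0.38 with overlapping groups. The exception, Ttc26 (IFT56), had 28, 46 and 12 counts in KANSL1-deficient libraries and 32, 4 and 3 in control libraries, too few and too scattered to place (1.16 ± 0.95). Summed over the IFT-B core as CPM per kilobase, the libraries had 19.0, 19.0 and 23.9 in KANSL1-deficient cells, against 27.4, 27.3 and 28.4 in control cells. These sums did not overlap, and abundant short genes weigh most in them. The same sum over all 44 genes overlapped, at 178, 171 and 180 in KANSL1-deficient and 160, 191 and 171 in control cells. The mean log2 differences of the IFT-B core, given below, overlapped as well.

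The peripheral IFT-B subunits, which meet the kinesin, were split, 3 negative and 3 positive (median −0.05). Ift57, which is known to bind IFT20, had 15.2, 10.9 and 13.1 CPM in KANSL1-deficient libraries, against 8.42, 8.67 and 8.36 CPM in control libraries. All KANSL1-deficient values lay above the control values (log2 fold change 0.62 ± 0.24, adjusted p = 0.148). Ift57, with 1363 counts over the 6 libraries, shares 6551 bases with Gm15518 on the other strand, which had 71. Gm15518 was called higher (4.05 ± 1.09, adjusted p = 0.0458 by edgeR), and reads in the shared stretch cannot be told apart. Ift20 had 95.0, 89.5 and 86.3 CPM in KANSL1-deficient libraries and 80.9, 98.9 and 83.8 CPM in control libraries, which overlapped (0.04 ± 0.14, and −0.11 with library totals in place of TMM). Ift80 also overlapped, at 107, 118 and 85.4 CPM in KANSL1-deficient libraries and 87.1, 86.5 and 87.6 CPM in control libraries (0.25 ± 0.15). Traf3ip1 (IFT54) had the lowest value, −0.98 ± 0.45, on 1.97, 2.36 and 5.41 CPM in KANSL1-deficient libraries and 7.35, 3.87 and 8.00 CPM in control libraries, with an adjusted p of 0.222. Ift172, the largest subunit of the particle, did not overlap (6.86 ± 1.30 CPM in KANSL1-deficient and 10.4 ± 2.25 CPM in control libraries, −0.60 ± 0.29), and Cluap1 (IFT38) stood at −0.14. The subunits with the most CPM, Ift80 and Ift20, thus lay within 0.25 of 0 on the log2 scale.

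Of the dynein-2 genes, the light intermediate chain Dync2li1 had 4.72, 3.35 and 3.55 CPM in KANSL1-deficient libraries, against 1.74, 1.80 and 1.94 CPM in control libraries. The groups did not overlap, and the log2 fold change of 1.08 ± 0.40 had an adjusted p of 0.128. The heavy chain Dync2h1, which is the motor itself, had 29.0, 27.5 and 34.9 CPM in KANSL1-deficient libraries and 43.1, 43.5 and 29.2 CPM in control libraries, which overlapped (−0.34 ± 0.20).

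The BBSome and its recruiting GTPase Arl6 had negative values for 5 of 6 tested genes (median −0.69). Bbs4, a subunit also found at centriolar satellites, lies on chromosome 9 at 59229273 to 59260791 (GRCm39). It had 21.5, 26.2 and 31.4 CPM in KANSL1-deficient libraries, against 32.5, 49.5 and 40.9 CPM in control libraries. The groups were separate by a small gap, between 31.4 and 32.5 CPM, with 26.4 ± 4.92 CPM on average in KANSL1-deficient and 40.9 ± 8.53 CPM in control cells. Its log2 fold change of −0.63 ± 0.21 came with an adjusted p of 0.0900 by edgeR and 0.0294 by DESeq2. Bbs4 shares 2063 bases with Adpgk on the other strand, whose log2 fold change was 0.11 ± 0.17, and the strand setting of the read counting was not stated, so their reads cannot be told apart there. Bbs1, a subunit that contacts Arl6, had 1.43, 1.84 and 1.20 CPM in KANSL1-deficient libraries, against 2.52, 2.95 and 2.81 CPM in control libraries, without overlap (−0.89 ± 0.46, adjusted p = 0.279). Bbs7 had the lowest value, −1.13 ± 0.79, on 3, 18 and 55 counts in KANSL1-deficient libraries and 54, 33 and 94 in control libraries, a spread as wide as the difference. Bbs9 was at 58.8, 46.2 and 55.9 CPM in KANSL1-deficient libraries and 50.9, 46.3 and 59.4 CPM in control libraries, and its value of 0.04 ± 0.17 was the positive one among them, at −0.11 with library totals. Bbs2 and Arl6 stood at −0.74 and −0.44 with overlapping groups. The chaperonin-like Bbs10, which helps the BBSome to assemble, overlapped too (−0.58 ± 0.66).

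The transition zone, the gate between cell and cilium, had 4 negative and 3 positive values among 7 tested genes (median −0.40). B9d2 lies on chromosome 7 at 25380205 to 25385983 (GRCm39) and had 68.6, 67.8 and 74.2 CPM in KANSL1-deficient libraries, against 38.7, 63.9 and 44.6 CPM in control libraries. The groups did not overlap, with 70.2 ± 3.48 CPM on average in KANSL1-deficient and 49.1 ± 13.2 CPM in control cells. Its log2 fold change of 0.52 ± 0.19 had an adjusted p of 0.120 by edgeR and 0.0492 by DESeq2, and in the authors' deposited table a fold of 1.43 with an adjusted p of 0.0522. Rpgrip1l, a scaffold of the gate, had 16.7, 15.5 and 18.0 CPM in KANSL1-deficient libraries, against 14.6, 7.75 and 11.2 CPM in control libraries, also without overlap (0.58 ± 0.26, adjusted p = 0.212).

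Most other tested transition zone genes had negative values, none past the test. Cep290, which tethers the membrane to the microtubules, had 5.17, 5.37 and 9.41 CPM in KANSL1-deficient libraries, against 10.8, 13.4 and 11.0 CPM in control libraries (−0.82 ± 0.30, adjusted p = 0.126). Tctn3, a tectonic, had 5.46, 6.41 and 3.15 CPM in KANSL1-deficient libraries, against 7.55, 8.98 and 9.41 CPM in control libraries (−0.79 ± 0.33, adjusted p = 0.180). In both, every KANSL1-deficient library lay below every control library. Cep290 shares 2576 bases with the gene 4930430F08Rik (log2 fold change −0.60) on the other strand, so reads there cannot be told apart either. Mks1, a B9-domain partner of B9d2, had the lowest value of all tested genes here, −1.81 ± 0.84, on 23, 48 and 1 counts in KANSL1-deficient libraries and 28, 106 and 139 in control libraries. The groups overlapped, and the adjusted p was 0.226. Tctn1 stood at −0.40 and Tctn2 at 0.07 (−0.0822 with library totals), with overlapping groups, and Tctn1 shares 4450 bases with Hvcn1 on the other strand.

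Of the genes for traffic of ciliary membrane proteins, Tulp3, the adaptor that brings receptors to IFT-A, had 5.02, 3.82 and 3.45 CPM in KANSL1-deficient libraries, against 9.04, 5.33 and 7.70 CPM in control libraries, without overlap (−0.84 ± 0.34, adjusted p = 0.156). Arl13b, a GTPase of the ciliary membrane, had 4.97, 6.88 and 10.5 CPM in KANSL1-deficient libraries and 8.85, 16.9 and 12.9 CPM in control libraries, which overlapped (−0.79 ± 0.33, adjusted p = 0.185). Their median of −0.82 was the lowest of the role groups.

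**Figure D4:**
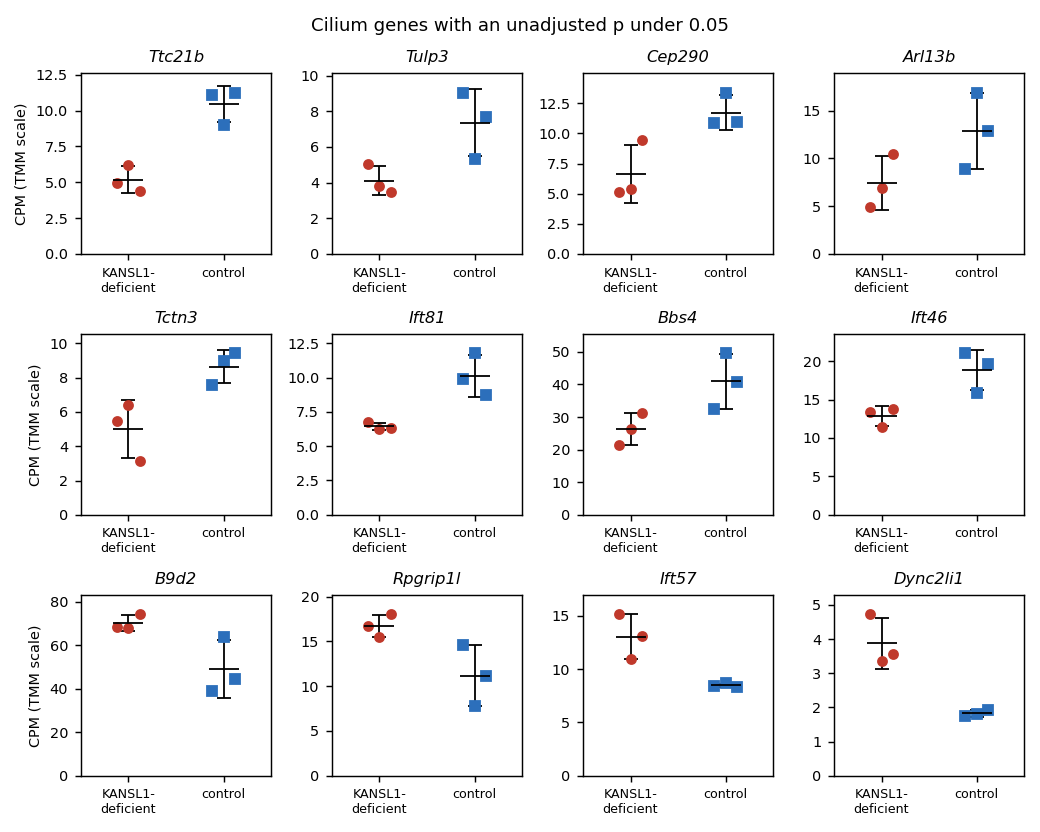
CPM in each of the 6 libraries for the 12 cilium genes with an unadjusted p under 0.05, KANSL1-deficient libraries left of control libraries, with bars at the mean and 1 SD. Arl13b is the only one of the 12 whose groups overlap, and the 4 genes higher in KANSL1-deficient cells are Dync2li1, Ift57, Rpgrip1l and B9d2.

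Within a library, the tested genes could be summarised by their mean log2 difference from the control mean. Over all 37 it was −0.30, −0.37 and −0.24 in KANSL1-deficient libraries and 0.02, −0.04 and 0.02 in control libraries, so each KANSL1-deficient library lay below each control library. For the BBSome it was −0.73, −0.58 and −0.36, against −0.22, 0.05 and 0.17. For the transition zone the libraries overlapped, at −0.19, −0.34 and −0.47 in KANSL1-deficient cells and −0.22, 0.05 and 0.17 in control cells. The libraries also overlapped for the IFT-B core, at −0.43, −0.39 and −0.13 in KANSL1-deficient cells and 0.19, −0.03 and −0.16 in control cells. The summed CPM of all 44 genes, which Ift20, Ift80 and B9d2 dominate, was 582, 563 and 584 in KANSL1-deficient libraries and 597, 640 and 614 in control libraries.

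**Figure D5:**
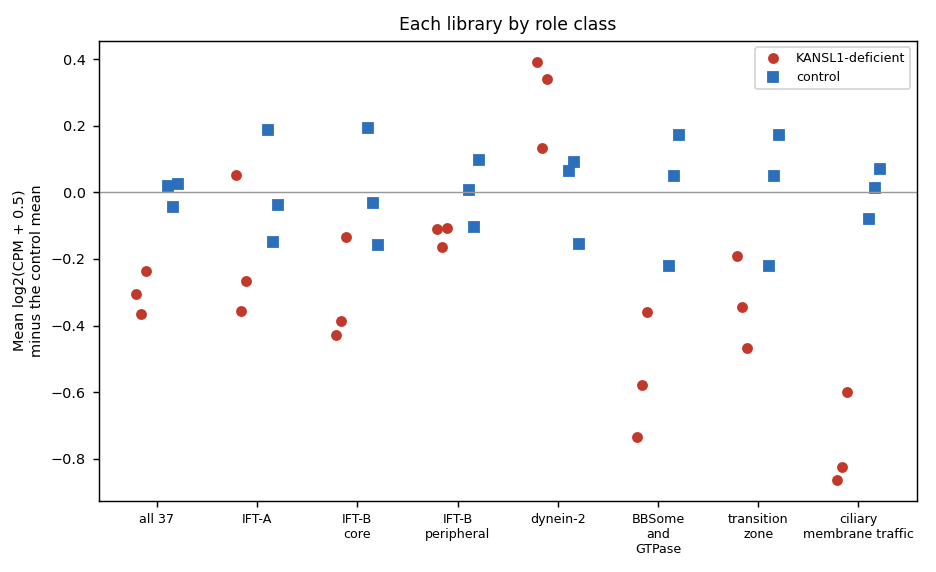
Mean log2 difference from the control mean in each library, by role group, KANSL1-deficient libraries left of control libraries. Ciliary membrane traffic lies at −0.86, −0.82 and −0.60 in KANSL1-deficient cells and the BBSome at −0.73, −0.58 and −0.36, while dynein-2 lies at 0.39, 0.13 and 0.34, above the control mean.

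The 7 genes under the filter had few counts. Summed over 3 libraries each, the BBSome chaperonin-like Bbs12 had 2 counts in KANSL1-deficient and 31 in control libraries, a depth-corrected ratio of 0.0694 (95% counting interval 0.00804 to 0.273). Bbs5, a BBSome subunit, had 1 count in KANSL1-deficient and 29 in control libraries, 24 of them in control replicate 2. The intervals cover counting error only, and these ratios rest on few reads. Cc2d2a had 8 and 13 counts in KANSL1-deficient and control libraries, B9d1 10 and 9, and Ift43 3 and 2. Of the RNAs named for the opposite strand, Ift88os had 14 and 4 counts and B9d1os 3 and 0. The depth-corrected ratio of Ift88os was 3.76 (95% counting interval 1.18 to 15.7). It rests on 4, 10 and 0 counts in KANSL1-deficient libraries and 0, 0 and 4 in control libraries. Ift88os lies within Ift88, so its reads may be shared. Bbs12 shares 155 bases with Cetn4 on the other strand, which had 36 counts over the 6 libraries.

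Of the genes around the cilium that the name rule leaves out, 7 were called by edgeR over 9 lists (104 tested genes). The lists and their tests are part of the fit over all genes, of which 6.76% were called in either direction. The cilium disassembly list held 4 of them, all higher, of 9 tested: the centrosomal kinases Nek2, Plk1 and Aurka and the depolymerising kinesin Kif2c, which are also known for their work in mitosis. Nek2 rose to 30.5 ± 3.50 CPM in KANSL1-deficient cells, against 4.17 ± 2.05 CPM in control cells (log2 fold change 2.87 ± 0.32, adjusted p = 0.00287). Kif2c rose to 18.8 ± 2.27 CPM, against 3.64 ± 0.957 CPM in control cells (2.37 ± 0.28, adjusted p = 0.00308). Aurka rose to 50.4 ± 0.939 CPM, against 27.4 ± 8.75 CPM in control cells (0.88 ± 0.23, adjusted p = 0.0403), and Plk1 by 1.72 ± 0.39 on the log2 scale (adjusted p = 0.0247).

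Kif7, the kinesin of the hedgehog pathway at the ciliary tip, fell to 1.24 ± 0.696 CPM in KANSL1-deficient cells, against 5.48 ± 2.67 CPM in control cells (−2.14 ± 0.56, adjusted p = 0.0412), and was the 1 call among 6 tested hedgehog genes. Of 13 motor subunits, the dynein light chain Dynlt1b rose, with 10.6 ± 2.73 CPM in KANSL1-deficient and 4.31 ± 0.466 CPM in control cells (1.29 ± 0.31, adjusted p = 0.0290), while the kinesin-2 genes Kif3a, Kif3b and Kifap3 did not pass (0.05, 0.31 and −0.56). Of 23 basal body genes, Cep97, a cap protein of the centriole that holds back ciliogenesis, rose to 286 ± 34.5 CPM, against 203 ± 14.4 CPM in control cells (0.49 ± 0.13, adjusted p = 0.0413). No gene was called among 9 IFT and BBSome subunits under other symbols (median −0.23), 16 further transition zone genes (−0.31), 10 carriers and cargo of the ciliary membrane (−0.09), 8 RFX factors and Foxj1 (0.25) and 10 NSL complex genes (0.13). In that order, 3, 3, 1, 1 and 3 of them had an unadjusted p under 0.05, in either direction, where 11.0% of all tested genes were lower and 11.7% higher. Among the first of these lists, the BBSome subunit Ttc8 (BBS8) had 3, 2 and 0 counts in KANSL1-deficient libraries, against 13, 16 and 59 in control libraries (−3.92 ± 1.10, adjusted p = 0.0535). With each of the 6 libraries left out in turn, Nek2 and Kif2c passed all 6 times, Plk1 passed without KANSL1-deficient replicate 1 and without control replicate 1, Dynlt1b without KANSL1-deficient replicate 1 and Kif7 without control replicate 1, and Aurka and Cep97 passed none. Rfx3, an RFX factor of ciliated cells, stood at 0.17, and Kat8 at 0.0051.

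All 8 markers of DP thymocytes were present, at a summed 14849 to 16529 CPM in KANSL1-deficient and 12605 to 13094 CPM in control libraries. Of 6 listed genes of cells with motile cilia 5 were in the table, at a summed 5.89 to 8.17 CPM in KANSL1-deficient libraries and 8.18 to 10.5 CPM in control libraries. Foxj1 held 3.39 to 6.54 CPM of this in KANSL1-deficient and 3.96 to 6.69 CPM in control libraries (log2 fold change −0.13). Ccdc39 had 24, 25 and 30 counts in KANSL1-deficient libraries and 40, 66 and 68 in control libraries, without overlap (−1.02). Cfap43 stood at −0.51 with overlapping groups. None of this list was called. The axonemal dynein gene Dnai1 was at 0 in 5 of 6 libraries, with 1 count in KANSL1-deficient replicate 1. Dnah5, another axonemal dynein gene, had 0, 0 and 0 counts in KANSL1-deficient libraries and 1, 0 and 7 in control libraries. The 6 markers of fibroblasts, which do carry a primary cilium, summed to 0.330 to 2.95 CPM in KANSL1-deficient and 1.85 to 4.31 CPM in control libraries. None was called. Col1a2, Col3a1 and Dcn were at 0 in every control library, and Col3a1 and Dcn had counts in KANSL1-deficient replicate 1 only. Col1a1 had 4, 2 and 32 counts in KANSL1-deficient libraries and 37, 14 and 40 in control libraries. Its log2 fold change was −1.13 (adjusted p = 0.550 by edgeR), and that of Pdgfrb was −2.38 (adjusted p = 0.0786). Markers of thymic epithelium, of which 5 of 6 were in the table, summed to 9.24 to 13.0 CPM in KANSL1-deficient and 8.36 to 10.6 CPM in control libraries. No marker of epithelium, B cells, macrophages, endothelium or erythroid cells was called. The part of such cells in the cilium genes of low abundance was not tested.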

How the data were processed

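Kansl1 fl/fl CD4-Cre and Kansl1 fl/fl libraries were grouped by their labels (3 each), and 0 sample columns were left unmapped. The labels give each library a mouse number, and p-values measure the spread between these libraries. The submitters' processing notes name STAR, featureCounts, DESeq2 and GRCm39, with no versions and no strand setting. The authors deposited raw read counts per gene and FPKM values for the same genes, which equal count over length and library total. Per the file headers, the authors' comparison table holds the mean normalized signal of each gene, the ratio of the groups, its log2 value, and raw and adjusted p-values.

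Counts of all genes entered edgeR 4.0.16 (R 4.3.3) and its quasi-likelihood test (TMM scaling, default filter with minimum count 10 and minimum total 15, robust fit, Benjamini-Hochberg threshold 0.05); the standard error was the log2 fold change over the square root of F. The procedure was tested on simulated data. Per-library summaries used log2(CPM + 0.5). DESeq2 1.42.0 and limma 3.58.1 were alternatives, with other scalings, filters, pseudocounts, trend corrections, a replicate block and each library left out. Ratios of genes under the filter carry exact 95% counting intervals. Genes described in full were those with an unadjusted p under 0.05, the 3 highest in FPKM and the extremes of each role group; of each surrounding list, up to 4 called genes. Other genes with groups that do not overlap were named after their values were seen. The genes, lists and markers were chosen with earlier results of these data known. Promoters came from RefSeq (GRCm38.p6), a build other than that of the counts, and were matched by symbol. Of the 44 genes, 20 share positions with another gene, 7 of them with one that holds at least 0.1 times as many counts.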

Additional observations from a re-analysis of the deposited data

How the results depend on the processing

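The median log2 fold change of the tested cilium genes was negative under each of the 18 alternatives run. It was −0.58 with library totals in place of TMM, where the median of all genes was −0.17, −0.33 on log2(FPKM + 1), −0.55 on log2(FPKM + 0.1), −0.24 on log2(FPKM + 1) with no filter, and −0.31 with the abundance trend removed. Leaving out each library in turn gave −0.53 to −0.43. Calls among the cilium genes depended on the setting: 2 were lower with library totals and with DESeq2 (Bbs4 and Ttc21b), 3 with no filter (these and Mks1) and 1 with a filter of 1 CPM in 3 libraries, with limma-voom and with the length trend removed (Ttc21b), while 1 was higher with DESeq2 (B9d2). No cilium gene was called with each library left out in turn (0 to 0). The cause of these differences was not tested. Ttc21b ranged between −1.17 and −0.52 and Bbs4 between −0.79 and −0.50, the first being called under 6 and the second under 3 of the alternatives. The surrounding lists had 12 calls with no filter and with DESeq2, 4 on log2(FPKM + 1), 3 on log2(FPKM + 0.1), 0 on log2(FPKM + 1) with no filter (limma), and 2 to 4 with a library left out. Libraries with equal replicate numbers had deviations with correlations of −0.07, −0.03 and −0.14, none best with its own number. With 3 libraries per group these values cannot settle whether mice were paired, which the labels do not state. With the replicate block, 406 genes were called in all in place of 1038, 3 of them in the surrounding lists, and no cilium gene. Genes near 0 or of low count changed sign without being called. Bbs9 was −0.11 with library totals and on log2(FPKM + 0.1), −0.10 on log2(FPKM + 1) with and without filter, and between −0.0598 (without control replicate 2) and 0.14 with a library left out, being −0.03 without KANSL1-deficient replicate 1. Ift20 was −0.11 with library totals and on log2(FPKM + 0.1), −0.10 on log2(FPKM + 1) with and without filter, −0.0203 with the abundance trend removed, and between −0.0303 (without control replicate 1) and 0.11 with a library left out, being −5.37e-04 without control replicate 3. Tctn2 was −0.0822 with library totals, −0.18 with limma-voom, −0.0102 on log2(FPKM + 1) with and without filter, −0.10 on log2(FPKM + 0.1), −0.11 with the replicate block, and between −0.55 (without KANSL1-deficient replicate 1) and 0.49 with a library left out, being −0.10 without control replicate 3. Bbs10 ranged between −1.03 and 0.37 (without control replicate 1) and Tctn1 between −0.66 and 0.11 (without control replicate 3), and on log2(FPKM + 0.1) Wdr35 was −0.0064. For Mks1, Bbs7 and Ttc26, genes of few counts, the standard errors were 0.79 to 0.95 on the log2 scale.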
